A study of Mus musculus with 16 samples.

Results

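The genes described here are those of chemokines, interleukins and the receptors that bind them. They were taken by name from a panel of fibrosis, inflammation and metabolism genes: all rows whose symbols begin with Ccl, Ccr, Cxcl, Cxcr or Cx3c, or with Il and a digit, apart from 2 that are not analysed here. This gave 33 of the 760 genes in the table, made up of 3 CC ligands, 6 CXC ligands, 7 chemokine receptors, 9 interleukins and 8 interleukin receptor chains. No row began with Cx3c. The rows were picked by name, with earlier results of these data known. The liver RNA came from 16 male C57BL/6J mice housed at 29 degrees C, which is thermoneutral for mice, and all were fed a diet in which fructose made up 20 kcal% and fat, chiefly from palm oil, 40 kcal%, with cholesterol at 0.02%. The labels name this a mouse model of metabolic dysfunction-associated steatohepatitis (MASH), in which fat, inflammation and scarring build up in the liver. EVT0185, which the series title describes as acting on enzymes of acetyl-CoA metabolism, was given by gavage at 100 mg/kg to 8 mice, and 8 mice received the vehicle of 1.5% carboxymethyl cellulose and 0.2% Tween-20. No group without the diet is among the samples, so the levels have no healthy liver to be set against. Neither the age of the mice nor the length of dosing is given in the sources used here.

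Chemokines are small secreted proteins that draw leukocytes along a gradient through receptors coupled to G proteins, and they are named for the spacing of the first cysteines of the mature protein. Interleukins signal between leukocytes and tissue cells, mostly through JAK kinases and STAT factors, or through Myd88 and NF-kB in the IL-1 family. In fatty liver disease, chemokines made by hepatocytes, stellate cells, endothelium and resident macrophages recruit monocytes, T cells and neutrophils, and IL-6 type cytokines drive the hepatic acute phase response.

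Expression was measured as nCounter counts, in which each RNA molecule is read through a fluorescent barcode without amplification, normalized by the authors and deposited on a log2 scale. Values below are normalized counts, that is 2 to the power of the deposited value, and log2 differences are EVT0185 minus vehicle. Fold changes are ratios of geometric means, 2 to the power of the log2 difference, while the means given with an SD are arithmetic. Whole counts recovered from the table summed to between 1462994 and 1850800 per liver. Probes differ in efficiency, so values are compared between animals for 1 gene and not between genes. Genes with a mean of at least 20 over the 16 livers were tested with limma, and a gene was called when its adjusted p, by Benjamini-Hochberg over all 612 tested genes, was under 0.05.

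Of the 33 genes, 17 reached the floor of 20 and 16 lay under it. Among the 17 tested genes 5 fell and 1 rose in EVT0185 livers. The genes that fell were the chemokine Cxcl12 and its receptor Cxcr4, the interleukin Il6, and the receptor chains Il1r1 and Il10ra, and the gene that rose was the chemokine receptor Cxcr1. Over all 612 tested genes, 21.6% were called lower and 11.1% higher, so the share of called genes in the set, 6 of 17, lay near that of the panel, 32.7%. The median log2 difference of the 17 genes was -0.31 against -0.10 over all tested genes, and 15 of the 17 differences were below 0, against 66.0% of all tested genes. These medians and counts moved with the scaling, and the set median stayed below that of all tested genes. Centring each liver on its median shifted the median of all tested genes to 0.01 and that of the set to -0.19. That scaling left 12 of the 17 below 0 with 3 called lower and 1 higher, against 12.6% and 16.2% of all tested genes called. Quantile normalization shifted the median of all tested genes to 0.02 and that of the set to -0.14. Under it 11 were below 0 with 2 called lower and 1 higher, against 14.5% and 17.3% called. Cxcl12, Il1r1 and Cxcr1 were called in the same direction under all 3 scalings.

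**Figure D1:**
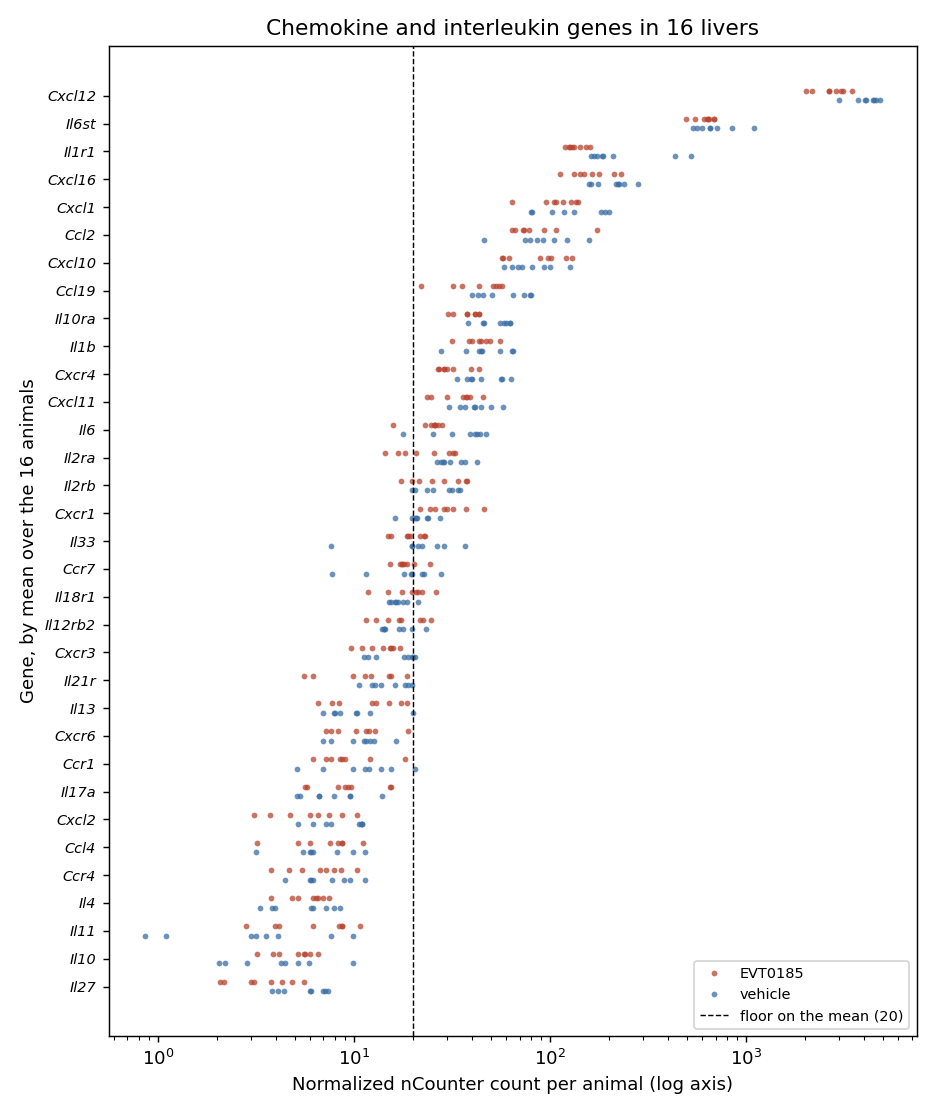
Normalized nCounter counts (log axis) of the 33 chemokine, interleukin and receptor genes, 1 row per gene ordered by its mean over the 16 livers, with 1 point per animal (EVT0185 above, vehicle below in each row). The dashed line marks the floor of 20, and the 16 genes in the lower part of the plot, with Ccr7 uppermost among them, have means under it.

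**Figure D2:**
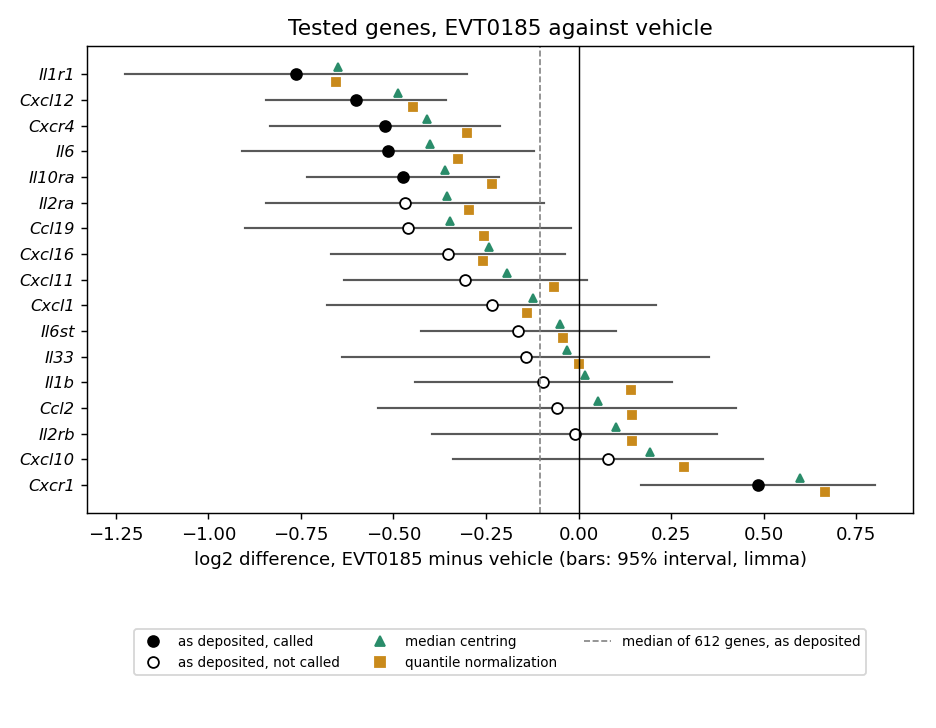
log2 difference, EVT0185 minus vehicle, of the 17 tested genes (circles, filled where called) with 95% intervals from limma, and the same difference after median centring (triangles) and quantile normalization (squares). Il1r1, Cxcl12, Cxcr4, Il6 and Il10ra lie on the lower side, Cxcr1 on the higher side, and both other scalings place every gene to the right of its value as deposited.

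By role, no CC ligand was called among 2 tested, and 1 of 5 tested CXC ligands fell. The 2 tested chemokine receptors went opposite ways, 1 of 3 tested interleukins fell, and 2 of 5 tested interleukin receptor chains fell. Over all tested genes 21.6% were called lower and 11.1% higher, and differences between roles were not tested. The median log2 difference was -0.26 for the CC ligands, -0.31 for the CXC ligands, -0.02 for the chemokine receptors, -0.14 for the interleukins and -0.47 for the interleukin receptors, whose median was -0.23 after quantile normalization. The sign of the chemokine receptor median turned after median centring (0.094) and quantile normalization (0.18), and that of the interleukin median after quantile normalization (0.0015) and with no floor (0.061).

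Cxcl12, the chemokine that holds leukocytes and progenitor cells bearing Cxcr4 in place, was the gene of the set with the smallest p. Its normalized counts ran from 2015 to 3459 with a median of 2767 in EVT0185 livers, and from 2999 to 4817 with a median of 4282 in vehicle livers. All 8 EVT0185 livers lay below the vehicle median and 5 of them below every vehicle liver; vehicle animal 7, at 2999, was the lowest of its group and lay inside the EVT0185 range. Mean counts were 2754 ± 485 in EVT0185 and 4156 ± 582 in vehicle livers (SD, n = 8 each), a 1.52-fold fall (log2 -0.60, SE 0.12, limma adjusted p = 0.000728). Median centring gave -0.49 (limma adjusted p = 0.000253) and quantile normalization -0.45 (limma adjusted p = 0.00178), and the difference lay between -0.67 and -0.54 when any 1 animal was left out. Whether fewer Cxcl12-producing cells or less of its RNA per cell lay behind such a value cannot be told apart in RNA from whole liver, and the same holds for each gene below.

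Cxcr4, the receptor of Cxcl12 on leukocytes and on many tissue cells, fell as well. It had 26.9 to 43.4 normalized counts in EVT0185 livers (median 29.4) and 33.6 to 63.2 in vehicle livers (median 42.2). Here 6 of 8 EVT0185 livers lay below every vehicle liver, while EVT0185 animals 5 and 6, at 39.6 and 43.4, lay among the vehicle values. The means were 32.1 ± 6.08 in EVT0185 and 46.6 ± 10.9 in vehicle livers (SD, n = 8 each), a fall of 1.44-fold (log2 -0.52 with SE 0.15, limma adjusted p = 0.0118). Raw counts of Cxcr4 were low, from 25 to 45 in EVT0185 and from 34 to 73 in vehicle livers. Its call ended after median centring (log2 -0.41, limma adjusted p = 0.0674) and after quantile normalization (log2 -0.30, limma adjusted p = 0.119). Across animals ligand and receptor showed no relation that passed a test: with each group's mean removed, Pearson's r between Cxcl12 and Cxcr4 was 0.0208 (permutation p = 0.939) and Spearman's rho -0.129 (permutation p = 0.636) over 16 livers. It was 0.282 within EVT0185 and -0.221 within vehicle, 0.205 without the 2 livers farthest from the median of Cxcl12, and adjusted p over the 2 pairs computed was 0.939 for r and 0.636 for rho. The other pair, Il1b and Il1r1, gave r = -0.173 (permutation p = 0.64, adjusted p = 0.939) and rho = -0.221 (permutation p = 0.433, adjusted p = 0.636), and r was -0.18 without the 2 livers farthest from the median of Il1b.

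The 250 bases upstream of the annotated start are shown for Cxcl12 and Cxcr4, the ligand and receptor pair of which both genes fell. They come from RefSeq for assembly GRCm38.p6, in which 24 of the 33 genes have a promoter entry, and run 5′ to 3′ on the gene's strand. Capitals mark matches, on either strand, to the GC box (GGGCGG) and the TATA box (TATAAA), both chosen after the values were seen. The windows are chr6:117168285-117168534 on the plus strand for Cxcl12 and chr1:128592300-128592549 on the minus strand for Cxcr4.
Cxcl12: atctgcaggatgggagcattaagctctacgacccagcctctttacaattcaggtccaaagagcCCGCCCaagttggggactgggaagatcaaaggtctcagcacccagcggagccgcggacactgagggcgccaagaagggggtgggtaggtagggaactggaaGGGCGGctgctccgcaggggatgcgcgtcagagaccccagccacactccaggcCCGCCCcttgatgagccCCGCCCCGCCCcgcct
Cxcr4: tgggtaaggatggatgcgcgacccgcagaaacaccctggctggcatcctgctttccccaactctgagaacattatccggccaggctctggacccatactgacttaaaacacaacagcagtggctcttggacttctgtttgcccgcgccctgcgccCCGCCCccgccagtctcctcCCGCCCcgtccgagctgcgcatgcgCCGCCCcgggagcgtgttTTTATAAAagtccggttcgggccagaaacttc

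Counted back from the start, the window of Cxcl12 held 5 GC box matches, beginning 187, 86, 33, 16 and 11 bases before it, of which the last pair overlap, and no TATA match in these letters. That of Cxcr4 held 3 GC boxes, at 95, 75 and 50 bases, and 2 overlapping TATA matches at 32 and 30. Among 32851 windows of this length in the RefSeq table, 32.7% held a GC box and 12.4% a TATA box. Of the 24 genes of the set with an entry, 9 had a GC box and 5 a TATA box. Counted by window, as in the shares above, these genes had a GC box in 10 of 30 and a TATA box in 6 of 30.

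**Figure D3:**
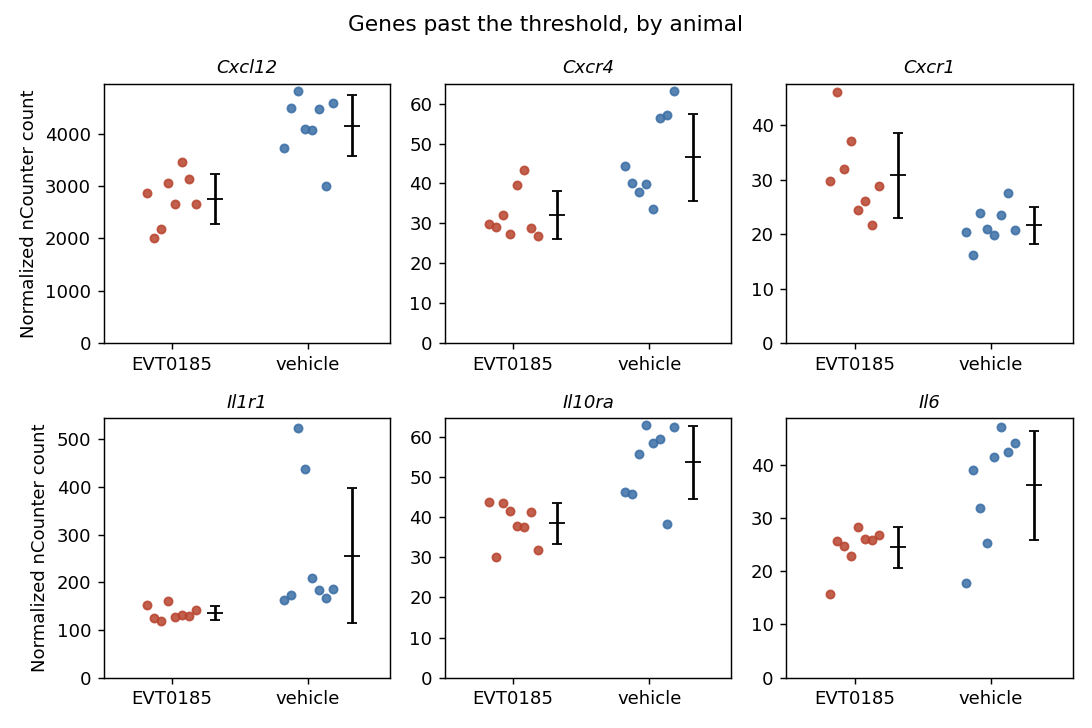
Normalized nCounter counts of the 6 called genes in each animal, EVT0185 at the left and vehicle at the right of each panel, with axes from 0. The bars give the mean and SD (n = 8 each). In these values as deposited, only for Il1r1 do the groups not overlap, and vehicle animals 3 and 4 stand far above the other 6 vehicle livers there.

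The other CXC ligands were not called. Cxcl16, which exists as a membrane-bound form and as a shed ligand of Cxcr6 on T and NKT cells, had 112.7 to 230.6 normalized counts in EVT0185 livers (median 157) and 159 to 279.9 in vehicle livers (median 219). In EVT0185, 4 livers lay below every vehicle liver, and 7 lay below the vehicle median. Its means were 166 ± 40.1 in EVT0185 and 209.9 ± 41.9 in vehicle livers (SD, n = 8 each), with a log2 difference of -0.35 (95% interval -0.67 to -0.04, limma adjusted p = 0.0798). It passed without EVT0185 animal 6, the highest of its group (limma adjusted p = 0.0329), and without EVT0185 animal 7 (limma adjusted p = 0.0486). Cxcr6 lay under the floor, at 11.1 ± 3.78 in EVT0185 and 11.1 ± 3.00 in vehicle livers (SD, n = 8 each).

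Cxcl10 and Cxcl11, ligands of Cxcr3 on activated T cells and induced by interferon gamma, did not pass. Cxcl10 ranged from 56.8 to 129 normalized counts in EVT0185 livers (median 92.9) and from 58.4 to 127 in vehicle livers (median 76.2), almost the same span. Its log2 difference was 0.08, with a 95% interval from -0.34 to 0.50 (limma adjusted p = 0.785), so that a change of up to 1.41-fold upward is inside the interval. Cxcl11 had 23.6 to 45.8 counts in EVT0185 livers (median 36.6) and 30.8 to 57.5 in vehicle livers (median 41.3), a log2 difference of -0.31 (95% interval -0.63 to 0.02, limma adjusted p = 0.144). RefSeq annotates Cxcl11 of this C57BL/6J assembly as a transcribed pseudogene, so its counts are of a transcript not annotated as protein-coding. Their receptor Cxcr3 lay under the floor, with 13.9 ± 2.62 in EVT0185 and 16.7 ± 3.95 in vehicle livers (SD, n = 8 each).

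Cxcl1 and Cxcl2 attract neutrophils. Cxcl1 had 64.4 to 139.6 normalized counts in EVT0185 livers (median 112) and 80.1 to 200.9 in vehicle livers (median 125). The ranges overlapped between 80.1 and 139.6, and vehicle animals 3, 4 and 6, at 192, 200.9 and 183, lay above every EVT0185 liver. The log2 difference was -0.23 (95% interval -0.68 to 0.21, limma adjusted p = 0.439) and -0.03 without vehicle animals 3 and 4. Cxcl2 was under the floor, at 6.32 ± 2.48 in EVT0185 and 8.71 ± 2.42 in vehicle livers (SD, n = 8 each).

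Cxcr1, a receptor of neutrophil-attracting CXC chemokines, was the 1 gene of the set that rose. It had 21.7 to 46.2 normalized counts in EVT0185 livers (median 29.3) and 16.2 to 27.6 in vehicle livers (median 20.9). All 8 EVT0185 livers lay above the vehicle median and 5 above every vehicle liver, with EVT0185 animal 2 the highest. The means were 30.8 ± 7.82 in EVT0185 and 21.6 ± 3.38 in vehicle livers (SD, n = 8 each), 1.4-fold higher (log2 0.49, SE 0.15, limma adjusted p = 0.0192). Median centring gave 0.60 and quantile normalization 0.67. The recovered counts behind it were small, 17 to 43 in each liver's sample, and the counting variance computed from them equalled 97.2% of the variance between animals. Csf3r, the receptor of the neutrophil growth factor G-CSF and the 1 neutrophil marker of the 6 listed that is in the table, went the other way, with 18.4 ± 5.53 in EVT0185 and 25.9 ± 5.17 in vehicle livers (SD, n = 8 each; log2 -0.54, limma adjusted p = 0.0371). The Csf3r call ended after median centring (log2 -0.42, limma adjusted p = 0.0901), after quantile normalization (log2 -0.40, limma adjusted p = 0.165) and without vehicle animals 3 and 4 (log2 -0.44, limma adjusted p = 0.12), with the difference below 0 in each, and its part in the values of Cxcr1 was not tested.

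Of the CC ligands, Ccl2, the monocyte attractant often named in steatohepatitis, showed no difference beyond the spread. It had 64 to 173.6 normalized counts in EVT0185 livers (median 76.1) and 46.4 to 158.9 in vehicle livers (median 89). The ranges covered each other almost fully, and its SD between animals, 0.50 on the log2 scale, was the largest among the tested genes of the set, with that of Il33 next to it at the same rounded value. The log2 difference was -0.06 (95% interval -0.54 to 0.42, limma adjusted p = 0.865), and its sign turned after median centring (0.054) and quantile normalization (0.14). Ccl19, which guides T cells and dendritic cells through Ccr7, had 21.9 to 56.9 counts in EVT0185 livers (median 47.6) and 40 to 80 in vehicle livers (median 57.9). All 8 EVT0185 livers lay below the vehicle median, yet the log2 difference of -0.46 (95% interval -0.90 to -0.02) did not pass (limma adjusted p = 0.104). Ccl4, a chemokine that attracts monocytes and T cells, lay under the floor at 7.34 ± 2.48 in EVT0185 and 7.06 ± 2.64 in vehicle livers (SD, n = 8 each).

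Among the interleukins, Il6, the inducer of acute phase proteins in hepatocytes, was the 1 called gene, and that call was close to the threshold. It had 15.8 to 28.3 normalized counts in EVT0185 livers (median 25.8) and 17.8 to 47.2 in vehicle livers (median 40.3). All 8 EVT0185 livers lay below the vehicle median, but vehicle animals 1 and 4, at 17.8 and 25.4, lay inside the EVT0185 range. The means were 24.5 ± 3.84 in EVT0185 and 36.2 ± 10.2 in vehicle livers (SD, n = 8 each), a fall of 1.43-fold (log2 -0.51 with SE 0.19, limma adjusted p = 0.0427). The call ended after median centring (log2 -0.40, limma adjusted p = 0.155), after quantile normalization (log2 -0.32, limma adjusted p = 0.189), with no floor (limma adjusted p = 0.0513) and by the exact rank-sum test, where its adjusted p was 0.0967. It also ended in 13 of the 16 fits that left out 1 animal (limma adjusted p from 0.0525 to 0.0885), the exceptions being those without vehicle animal 1 or 4 or EVT0185 animal 5.

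Il1b, the secreted product of inflammasome activation, had 31.7 to 55.6 normalized counts in EVT0185 livers (median 43.9) and 27.7 to 64.7 in vehicle livers (median 45). The EVT0185 values lay wholly inside the vehicle range. Its log2 difference was -0.09 (95% interval -0.44 to 0.25, limma adjusted p = 0.703), and its sign turned with median centring (0.018) and with quantile normalization (0.14). Il33, an alarmin of the IL-1 family released from damaged cells, had a mean near the floor, with 14.9 to 23.2 counts in EVT0185 livers (median 19.1) and 7.62 to 36.8 in vehicle livers (median 21.8). All EVT0185 values lay within the wider vehicle range, and the log2 difference was -0.14 (95% interval -0.64 to 0.35, limma adjusted p = 0.688).

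Il1r1 is the receptor through which IL-1 alpha and IL-1 beta signal. In the values as deposited, it was the tested gene of the set with the largest difference and the 1 whose groups did not overlap. It had 119 to 161 normalized counts in EVT0185 livers (median 131) and 162 to 523 in vehicle livers (median 185). The gap between the groups was narrow, from 160.7 in the highest EVT0185 liver to 162.5 in the lowest vehicle liver. It did not hold after median centring. EVT0185 animal 4 had a log2 value of 7.33 against a liver median of 7.24, and vehicle animal 1 had 7.34 against 7.37. Relative to the liver medians the groups therefore overlapped. Over all tested genes, 2.29% had groups that did not overlap with EVT0185 lower. The means were 136 ± 14.5 in EVT0185 and 256 ± 141 in vehicle livers (SD, n = 8 each), a fall of 1.7-fold between geometric means (log2 -0.76 with SE 0.22, limma adjusted p = 0.0128). Median centring gave -0.65 and quantile normalization -0.66, called in both.

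The vehicle values of Il1r1 fell into a high pair and a group of 6. Vehicle animals 3 and 4 had 523 and 437 counts of Il1r1, while the other 6 vehicle livers lay between 162 and 209.7. In a fit without both, an alternative chosen after their values were seen, the fall of Il1r1 was 1.33-fold (log2 -0.41 with SE 0.09, limma adjusted p = 0.00277). The same fit called 6 genes of the set lower and 1 higher, where 18.6% and 9.64% of all tested genes were called, against 5 and 1 with all animals, the added gene being Cxcl16 (limma adjusted p = 0.0393).

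Il6st, or gp130, the chain through which IL-6, IL-11 and related cytokines signal, was also highest in these 2 livers, at 1097 and 848 normalized counts. It ranged from 496 to 691 in EVT0185 livers (median 638) and from 539.7 to 1097 in vehicle livers (median 654). Apart from vehicle animals 3 and 4 the groups covered much the same span. The log2 difference was -0.16 (95% interval -0.43 to 0.10, limma adjusted p = 0.352), and without both animals it was -0.0015 (limma adjusted p = 0.994). Stat3, the factor that IL-6 signalling activates, stood at 1282 and 1229 counts in vehicle animals 3 and 4, against 410 to 541 in EVT0185 livers and 454 to 655 in the other 6 vehicle livers. Both animals held the 2 highest of the 16 values for 3 of the 17 tested genes of the set, Il1r1, Il6st and Cxcl1, and for 48 of all 612 tested genes (7.84%).

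**Figure D4:**
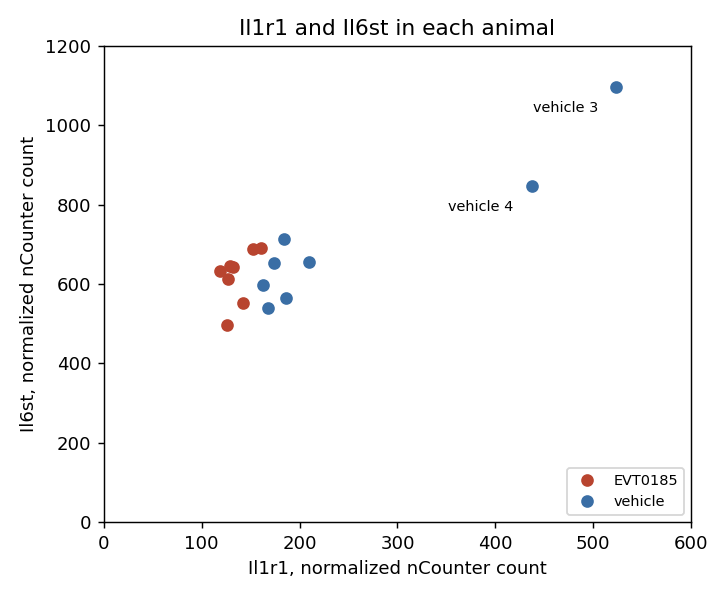
Normalized nCounter counts of Il1r1 (horizontal) against Il6st (vertical), 1 point per liver, with both axes from 0. The 8 EVT0185 livers lie between 119 and 161 counts of Il1r1, and among the vehicle livers animals 3 and 4 stand apart at 523 and 437 counts of Il1r1 with 1097 and 848 of Il6st.

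Il10ra, the ligand-binding chain of the receptor for the anti-inflammatory IL-10, fell. It had 30.1 to 43.7 normalized counts in EVT0185 livers (median 39.5) and 38.2 to 62.9 in vehicle livers (median 57). All 8 EVT0185 livers lay below the vehicle median and 4 below every vehicle liver, with vehicle animal 7 the lowest of its group. The means were 38.4 ± 5.14 in EVT0185 and 53.6 ± 9.10 in vehicle livers (SD, n = 8 each), a fall of 1.39-fold (log2 -0.47 with SE 0.12, limma adjusted p = 0.00713). It stayed called after median centring (log2 -0.36, limma adjusted p = 0.0189), and the call ended after quantile normalization (log2 -0.23, limma adjusted p = 0.104). Il10 itself was under the floor at 5.02 ± 1.16 in EVT0185 and 4.61 ± 2.57 in vehicle livers (SD, n = 8 each).

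Neither IL-2 receptor chain was called. Il2ra, the alpha chain carried by regulatory and activated T cells, had 14.5 to 33 normalized counts in EVT0185 livers (median 23.2) and 26.5 to 42.4 in vehicle livers (median 29.8). In EVT0185, 5 livers lay below every vehicle liver and the other 3 lay among them. Its log2 difference was -0.47 (95% interval -0.84 to -0.09), just outside the threshold (limma adjusted p = 0.052). It passed without vehicle animal 4 (limma adjusted p = 0.0484) and without EVT0185 animal 4 (0.0368), 5 (0.0282) or 8 (0.0329). Il2rb, the beta chain that IL-2 and IL-15 share, had 17.5 to 37.7 counts in EVT0185 livers (median 27) and 19.8 to 34.6 in vehicle livers (median 27.9). The vehicle values lay wholly inside the EVT0185 range, and the log2 difference was -0.01 (95% interval -0.40 to 0.38, limma adjusted p = 0.971), a value whose sign turned after both other scalings. The difference between the chains was not tested.

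The 16 genes under the floor comprised the ligands Ccl4 and Cxcl2, the interleukins Il4, Il10, Il11, Il13, Il17a and Il27, the chemokine receptors Ccr1, Ccr4, Ccr7, Cxcr3 and Cxcr6, and the receptor chains Il12rb2, Il18r1 and Il21r. Their means over the 16 livers ran from 4.66 to 18.7 normalized counts, and 8 of them lay under 10. Raw counts were between 1 and 28 per liver. For all 16, the counting variance came to over 50% of the variance between animals, against 7 of the 17 tested genes, and the median counting SD was 0.48 on the log2 scale, against 0.22 over the tested genes. Groups overlapped for all 16 genes, with 7 differences below 0 and 9 above. Over all genes at or over the floor, groups did not overlap for 2.29% with EVT0185 lower and 4.58% with EVT0185 higher.

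The table holds no rows of control probes, so no background level can be set. Il27, a cytokine of antigen-presenting cells and the lowest gene of the set, had 2.07 to 5.58 normalized counts in EVT0185 livers (median 3.43) and 3.81 to 7.42 in vehicle livers (median 6.01). Its group ranges overlapped, with 5 EVT0185 livers below every vehicle liver. It was called with no floor (log2 -0.71, SE 0.25, limma adjusted p = 0.0433), from 2 to 8 raw counts per liver. That fit called 5 of the 33 genes lower, against 17.1% of all 760 genes. Il11, a cytokine of the IL-6 family studied in fibrosis, went the other way without passing in that fit, with 6.71 ± 2.84 in EVT0185 and 4.16 ± 3.11 in vehicle livers (SD, n = 8 each; log2 0.95, SE 0.45, limma adjusted p = 0.138). Those just above the floor were Il33, Cxcr1 and Il2rb, at means of 21.1, 26.2 and 27.6, and those just below were Ccr7, Il18r1 and Il12rb2, at 18.7, 18.3 and 17.4.

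Of 30 genes listed for signalling downstream of these receptors, 12 were in the table and all were tested, of which 3 fell and 1 rose, against 21.6% and 11.1% of all tested genes. Stat5b, which transmits growth hormone and cytokine signals, fell by 0.29 on the log2 scale (limma adjusted p = 0.0176) and the adaptor Myd88 of the IL-1 receptor family rose by 0.24 (limma adjusted p = 0.0317), both called under all 3 scalings. Stat3 had means of 487 ± 43.1 in EVT0185 and 753 ± 316 in vehicle livers (SD, n = 8 each; log2 -0.54, limma adjusted p = 0.0281). The call ended after median centring (log2 -0.43, limma adjusted p = 0.0655), and Stat3 was called after quantile normalization (log2 -0.47, limma adjusted p = 0.0397) and at -0.26 without vehicle animals 3 and 4 (limma adjusted p = 0.039). The kinase Jak1 fell by 0.20 on the log2 scale (limma adjusted p = 0.026) and was called after quantile normalization (log2 -0.14, limma adjusted p = 0.0291). The Jak1 call ended after median centring (log2 -0.087, limma adjusted p = 0.355) and without vehicle animals 3 and 4 (log2 -0.18, limma adjusted p = 0.0524).

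Among markers of the leukocytes that carry these receptors, those of T cells were low, while the 4 macrophage markers in the table all reached the floor. All 6 T cell markers of 8 listed that are in the table lay under the floor, with summed levels of 60.7 to 91.8 normalized counts in EVT0185 and 67.5 to 94.9 in vehicle livers, and each had at least 5 raw counts in every liver. Of 4 macrophage markers in the table of 10 listed, Cd68 fell, with 222 ± 24.3 in EVT0185 and 331 ± 127 in vehicle livers (SD, n = 8 each; log2 -0.50, limma adjusted p = 0.0317), a call that ended after median centring (log2 -0.39, limma adjusted p = 0.0973) and quantile normalization (log2 -0.40, limma adjusted p = 0.069) and held without vehicle animals 3 and 4 (log2 -0.41, limma adjusted p = 0.0326). The other 3 macrophage markers were not called, with log2 differences of -0.14 for Csf1r, -0.14 for Cd14 and 0.29 for Cd163, and the median over the 4 was -0.14. The summed macrophage markers ran from 819 to 978 in EVT0185 and from 706 to 1961 in vehicle livers. Csf1r, at a mean of 555 over all livers, weighed most in that sum. None of 4 endothelial or 4 stellate cell markers in the table, of 6 listed each, was called. Median log2 differences were -0.02 for the endothelial and -0.24 for the stellate cell markers. Without vehicle animals 3 and 4 the stellate cell marker Reln passed (log2 -0.52, limma adjusted p = 0.0301), and the other stellate cell markers did not. Summed levels of the endothelial markers were 757 to 1028 in EVT0185 and 662 to 1052 in vehicle livers. Those of the stellate cell markers, in which Reln weighed most, were 239 to 501 in EVT0185 and 359 to 663 in vehicle livers. Of the markers of NK cells, B cells and Kupffer cells, 1 each was tested and none was called. No dendritic cell or cholangiocyte marker of the lists was among the genes of the table. The hepatocyte markers Apoa2 and Fgb, of the cell type that makes up most of the liver, had at least 143090 and 30227 raw counts in every liver and were not called (log2 0.17 and -0.30). Of 4 hepatocyte markers in the table, of 6 listed, 1 fell, and the median log2 difference was -0.63. Pck1, an enzyme of gluconeogenesis, fell by 1.90 on the log2 scale (limma adjusted p = 5.17e-05) and was called under all 3 scalings. Cyp7a1, which starts the conversion of cholesterol to bile acids, had a log2 difference of -0.97 (limma adjusted p = 0.0564) and passed without vehicle animals 3 and 4 (log2 -1.18, limma adjusted p = 0.0071). The part of these cell types in the differences above was not tested.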

How the data were processed

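The authors scaled nCounter counts of 760 genes by a global geometric mean in nSolver 4.0, per the design text of the series, and the deposited values are log2 of these. The sources used here do not name the genes that set the factor, and the median over the genes still ran from 6.92 to 7.43 on the log2 scale between livers. They were used as deposited. Within 0.1 of a count, all values of every liver were whole multiples of 1 step, which gave the recovered counts. The members and lists were chosen with earlier results of these data known. Genes with a mean of at least 20 (612) were tested by limma 3.58.1 in R 4.3.3 (lmFit, eBayes with a variance trend, no covariate, two-sided). In data simulated for 200 changed genes, as many up as down and with no scaling difference between livers, the fit recovered known changes on average. That check does not bear on the choice of scaling. Correlations used 100000 permutations within groups (numpy 2.4.6). Genes named were the called ones, tested ones with a mean of at least 100, 18 fixed by name as far as they are in the table, the 3 of each role with the smallest p, the 3 on each side of the floor and the 3 most variable; all 17 tested genes are given. All 33 names matched RefSeq symbols. No batch is given in the sources used here. The labels call the samples biological replicates, 8 per group. The labels do not state that equal replicate numbers pair samples across groups. Same-numbered livers correlated at r from -0.144 to 0.458, and 8 such pairs are too few to settle it. Alternatives were 2 other scalings, no floor, a floor of 100, a pseudocount of 20, the replicate block, array weights, no variance trend, an exact rank-sum test and each of 16 livers left out. Not every gene the rule names is reported here.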

Additional observations from a re-analysis of the deposited data

Results flagged for a closer look

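In 2 of the 34 groups of 8 livers examined, 1 liver lay apart from the other 7 by more than the gap usual in a group of that size, judged as the share of the whole log2 range that lies between it and its nearest neighbour. Chance flags about 1 in 20 such groups. Il33 was low in vehicle animal 2, at 7.62 normalized counts against 19.8 in the next lowest vehicle liver (share 0.606). Without it the log2 difference of Il33 was -0.35 (limma adjusted p = 0.0863). Il6 was low in EVT0185 animal 1, at 15.8 normalized counts against 23 in the next lowest EVT0185 liver (share 0.641), and without it the log2 difference was -0.43 (limma adjusted p = 0.0885), where the call ended. The high Il1r1 of vehicle animals 3 and 4 was not marked in this way, since 2 livers share the high end.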

How the results depend on the processing

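The called genes lower in EVT0185 numbered 3 after median centring, 2 after quantile normalization and 2 with a floor of 100 (23.6% of the genes tested there), and the gene called higher (Cxcr1) was not called with the replicate block (adjusted p = 0.0597) nor tested with a floor of 100, each giving 0. Over all tested genes, calls higher and lower numbered 68 and 132 as deposited, 99 and 77 after median centring and 106 and 89 after quantile normalization. Leaving out 1 animal gave 4 to 6 called lower and 1 higher among the 17 tested genes of the set. Over all 612 tested genes the same fits called 103 to 165 lower and 60 to 71 higher. The interleukin receptor median was -0.23 after quantile normalization, and 111 of 112 such values of role medians moved by less than the spread between animals. That spread (SD 0.21 to 0.43 by role) was larger than the size of the median itself for every role but the interleukin receptors. A median could therefore shrink or turn sign and not count as moved, as with the CC ligands after quantile normalization (-0.055). Signs turned for Ccl2 (0.054 after median centring, 0.14 after quantile normalization), Il1b (0.018, 0.14, and 0.12 with array weights), Il2rb (0.10, 0.14, and 0.18 with array weights; 0.031 without vehicle animals 3 and 4) and Il33 (0.0015 after quantile normalization; 0.045 without vehicle animals 3 and 4), and, leaving out 1 animal, for Ccl2 (-0.20 to 0.058), Cxcl10 (-0.0063 to 0.17) and Il2rb (-0.081 to 0.077), none of them called; the cause was not tested. The correlation of Cxcl12 with Cxcr4 turned negative with median centring (-0.109, permutation adjusted p = 0.781) and with quantile normalization (-0.301, permutation adjusted p = 0.548). Same-numbered livers did not all deviate together (r from -0.144 to 0.458 over 8 pairs, 5 over 0.1; 1 EVT0185 liver correlated best with its own number). With the replicate block 6 genes of the set were called lower (21.1% of all tested), Cxcl16 added (adjusted p = 0.0204), and 0 higher. Il2ra passed with array weights (adjusted p = 0.0346) and without a variance trend (0.0453). For 7 of the 17 tested genes counting error exceeded 50% of the variance.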
